A study of Mus musculus with 4 samples.

Results

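The genes described here encode nuclear subunits of oxidative phosphorylation, the chain of complexes I to V in the inner mitochondrial membrane. They were taken as all probe sets with 1 annotated gene symbol that starts with Nduf, Uqcr or Atp5, that is Sdha, Sdhb, Sdhc or Sdhd, or that is Cox followed by a digit from 4 to 8 and a letter. In all, 179 of the 45101 probe sets on the array matched, for 90 of 18194 genes with a probe set of their own. Of these, 80 genes with 165 probe sets encode subunits, while 10 genes with 14 probe sets matched by name but encode assembly factors or related proteins and are given apart. Ndufa4, named for complex I, was counted with complex IV, where the protein is known to reside.

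The study compared mouse eye tissue, labelled retina, of control animals with that of animals labelled myocilin transgenic. Myocilin is a secreted protein of the outflow tissue of the eye, and per the labels the transgenic animals expressed it in the aqueous humor. Total RNA was measured on 4 arrays with 1 signal intensity for each probe set. The 2 control arrays are technical replicates of 1 control sample, per the labels, and the 2 transgenic arrays were taken as 2 samples, although nothing says that they came from separate animals, so the p-values cover the spread of these arrays alone, and that spread may be technical. The strain, the age, the number of animals pooled and the promoter of the transgene are not given in the labels used here.

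The arrays lay on a common level, with a trimmed mean signal of 150 on each. The label retina was set against marker genes. None of the 11 rod genes and none of the 8 cone genes with a probe set exceeded the trimmed mean (0 of 11 and 0 of 8). Of 11 genes listed for other retinal neurons 3 did, namely Trpm1, Tfap2b and Rbpms, and the cells that gave these signals were not determined. So did all 7 corneal epithelium genes, all 10 pigment epithelium and melanocyte genes and 18 of 19 skeletal muscle genes. In such bulk samples, fewer cells of a type and less RNA per cell cannot be told apart.

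Complex I takes electrons from NADH and complex II takes them from succinate, and both pass them through ubiquinone to complex III. Complex III hands them by cytochrome c to complex IV, which reduces oxygen, and complex V uses the proton gradient to make ATP. Muscle carries its own isoforms of some complex IV subunits, encoded by Cox6a2, Cox7a1 and Cox8b, beside the widely expressed forms encoded by Cox6a1, Cox7a2 and Cox8a. In the eye, photoreceptors, the corneal endothelium and the extraocular muscles are known to be rich in mitochondria.

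The stretches upstream of the isoform genes are shown because the muscle isoforms had the highest median change of the subunit groups. RefSeq windows of GRCm38.p6 were found for 66 of the 80 subunit genes, Cox6a2 not among them, and the 250 bases before each start were searched on both strands. Motifs were the NRF1 core GCGCATGCG, the ETS core CCGGAAG, the YY1 core CCATNTT, the E-box CAGCTG and the MEF2-like letters CTA, then 4 bases of any kind, then TAG. Capitals in the sequences mark every match. The windows, each 5′ to 3′ toward the gene start, lie at chr5:115348959-115349208 (minus strand) for Cox6a1, chr7:30183921-30184170 (plus strand) for Cox7a1, chr9:79759854-79760103 (minus strand) for Cox7a2, chr7:140900447-140900696 (minus strand) for Cox8b and chr19:7217617-7217866 (minus strand) for Cox8a.
Cox6a1: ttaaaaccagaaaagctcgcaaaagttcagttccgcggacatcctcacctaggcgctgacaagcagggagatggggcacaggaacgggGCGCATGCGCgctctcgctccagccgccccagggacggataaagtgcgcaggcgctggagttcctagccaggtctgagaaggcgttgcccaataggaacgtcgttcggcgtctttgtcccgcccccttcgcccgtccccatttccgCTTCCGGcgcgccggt
Cox7a1: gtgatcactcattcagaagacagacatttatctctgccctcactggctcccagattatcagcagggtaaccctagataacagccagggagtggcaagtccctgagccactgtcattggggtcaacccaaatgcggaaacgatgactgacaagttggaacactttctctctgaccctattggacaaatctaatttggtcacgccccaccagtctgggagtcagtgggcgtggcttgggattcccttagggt
Cox7a2: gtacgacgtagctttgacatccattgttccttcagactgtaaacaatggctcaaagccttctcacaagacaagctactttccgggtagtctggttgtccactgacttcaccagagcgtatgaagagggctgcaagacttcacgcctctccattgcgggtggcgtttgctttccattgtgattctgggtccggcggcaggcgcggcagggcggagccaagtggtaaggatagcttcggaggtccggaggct
Cox8b: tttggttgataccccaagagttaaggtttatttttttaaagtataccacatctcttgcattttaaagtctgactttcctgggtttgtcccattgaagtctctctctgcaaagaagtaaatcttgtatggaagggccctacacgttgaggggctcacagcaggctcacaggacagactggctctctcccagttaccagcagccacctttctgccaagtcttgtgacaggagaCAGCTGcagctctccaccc
Cox8a: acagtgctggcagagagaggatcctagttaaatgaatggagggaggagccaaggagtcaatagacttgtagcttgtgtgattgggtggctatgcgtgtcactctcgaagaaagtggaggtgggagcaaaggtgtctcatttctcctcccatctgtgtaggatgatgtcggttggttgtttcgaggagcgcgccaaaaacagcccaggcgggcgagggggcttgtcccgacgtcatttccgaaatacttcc

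Cox6a1 held the NRF1 core, matched on both strands at overlapping positions, and an ETS core near the start. Cox8b held 1 E-box, and Cox7a1, Cox7a2 and Cox8a held no match to these letters. Over the 71 windows of subunit genes, 7.04% held the NRF1 core against 1.45% of all 32851 windows of this length, and 16.9% held the ETS core against 6.91%. The subunit genes with the NRF1 core were Cox6a1, Atp5g2, Atp5k, Atp5l and Ndufa8. The YY1 core was found in 11.3% against 12.4%, the E-box in 8.45% against 13.0% and the MEF2-like letters in 1.41% against 3.2%. A match describes the letters and is not shown here to be a binding site.

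Subunit genes had slightly higher signals in the transgenic samples across all 5 complexes, and no single one passed the test. A gene is represented by its brightest tested probe set, and changes are differences of log2(signal + 16), transgenic minus control. Of 78 subunit genes bright enough to be tested, 73 were above 0, with a median of 0.24, a signal about 17.9% higher, and a range from −0.20 to 0.74. The median over all 27022 probe sets tested was −0.02, and 46.9% of them were above 0. Ndufb4 and Cox7b2 were too dim to be tested. With limma, 0 of the 147 tested subunit probe sets had an adjusted p under 0.05, against 0.0777% of all tested, of which 15 (0.0555%) were higher and 6 (0.0222%) lower. After quantile normalization 20 were higher and 19 lower. After median centring, which shifts each array to a common median, 12 of the subunit probe sets passed. The smallest adjusted p of a subunit gene was 0.187. At an unadjusted p under 0.05 there were 72 of the 147 subunit probe sets, all of them higher. Of all tested probe sets, 7.06% had such a p, 4.14% being higher and 2.92% lower. The arrays of the groups did not overlap, with transgenic above control, for 110 of the 147 subunit probe sets, against 21.1% of all tested, and for 2 with transgenic below, against 23.6%. By gene, 65 of the 78 subunit genes were apart with transgenic above and 2 with transgenic below. Of 873 other genes with a mean signal above 1195, 426 were apart with transgenic above and 161 with transgenic below. The counts of genes apart in each complex, given below, are to be read beside these. Probe sets of 1 gene share their transcript, and the subunits share 4 arrays, so these counts are not independent measurements.

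The levels were also compared array by array, where the control arrays show technical spread alone, so the spread between control animals was not measured. With transgenic array 1 alone, the median change of the 78 genes was 0.25, and with array 2 alone it was 0.23. The second control array exceeded the first for 47 of 78 genes with a median difference of 0.03, and the second transgenic array exceeded the first for 28 of 78 with a median of −0.03. Between a transgenic and a control array, the transgenic one was higher for 69 to 73 of the 78 genes, with median differences from 0.22 to 0.25. The median was 0.16 after quantile normalization, which makes the signal distributions of the arrays equal. Several bright subunits stood closer to 0 after it, and their values are given beside them below.

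**Figure D1:**
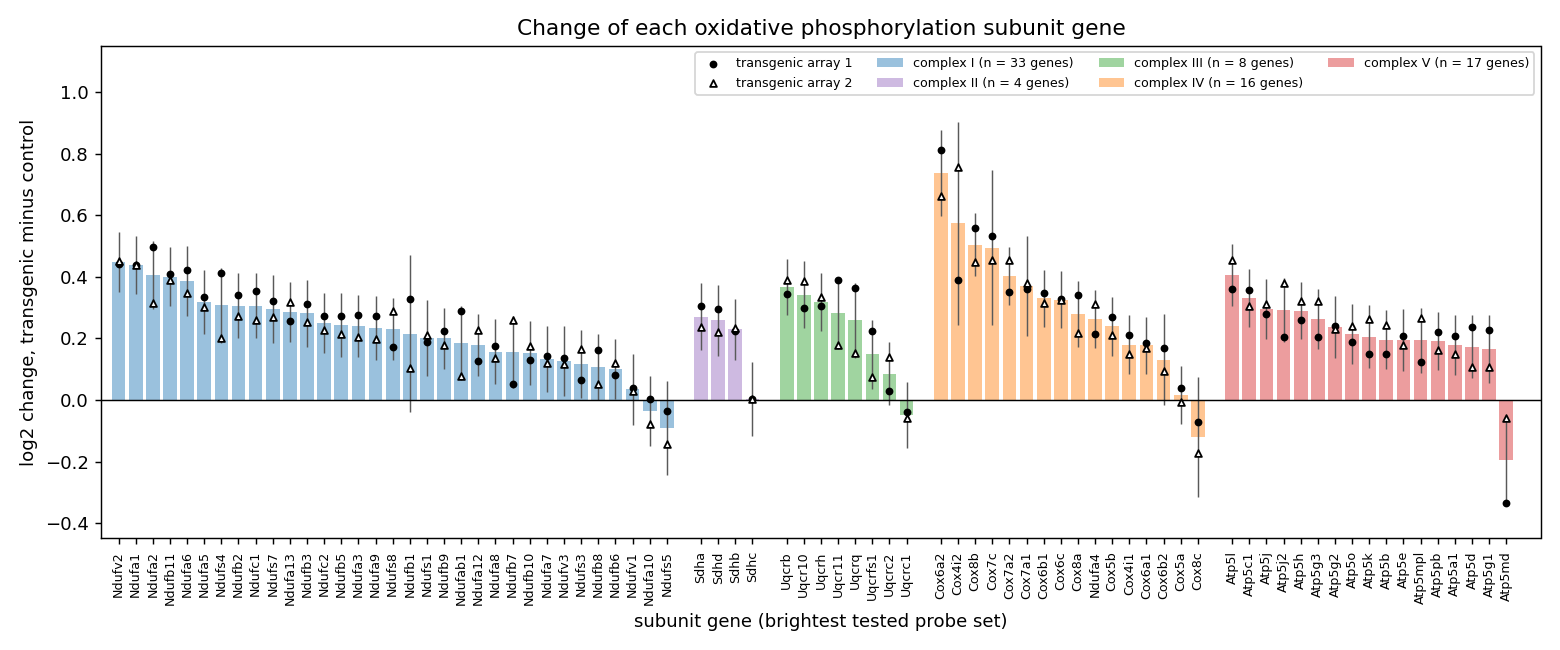
Log2 change of each of the 78 tested subunit genes, transgenic minus control, grouped by complex and ordered by size. Bars are the fitted changes, error bars the SE from limma, circles and triangles the 2 transgenic arrays against the mean of the control arrays. Of the bars, 73 lie above 0 and 5 below.

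Other bright genes also tended to be higher in the transgenic samples, but by less. Of the genes with a signal from 1000 to 3000, the 41 subunit genes had a median of 0.23 with 39 above 0, while the other 848 genes had a median of 0.05 and 60.3% above 0. At 3000 or more, the 22 subunit genes had a median of 0.28 with 22 above 0, while the other 241 genes had a median of 0.11 and 77.2% above 0. In these ranges an unadjusted p under 0.05 was reached by 21 of 41 and 16 of 22 subunit genes and by 22.1% and 29.5% of the others. Among the 10 subunit genes from 300 to 1000 the median was 0.13, against −0.01 for 3037 others. The poly-A transcripts, bacterial controls added to the RNA, had a median log2 change of 0.24 over 27 probe sets, as large as that of the subunits, and 18 of the 27 were higher on both transgenic arrays. The part of signal level and of the added controls in the subunit result was not tested.

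**Figure D2:**
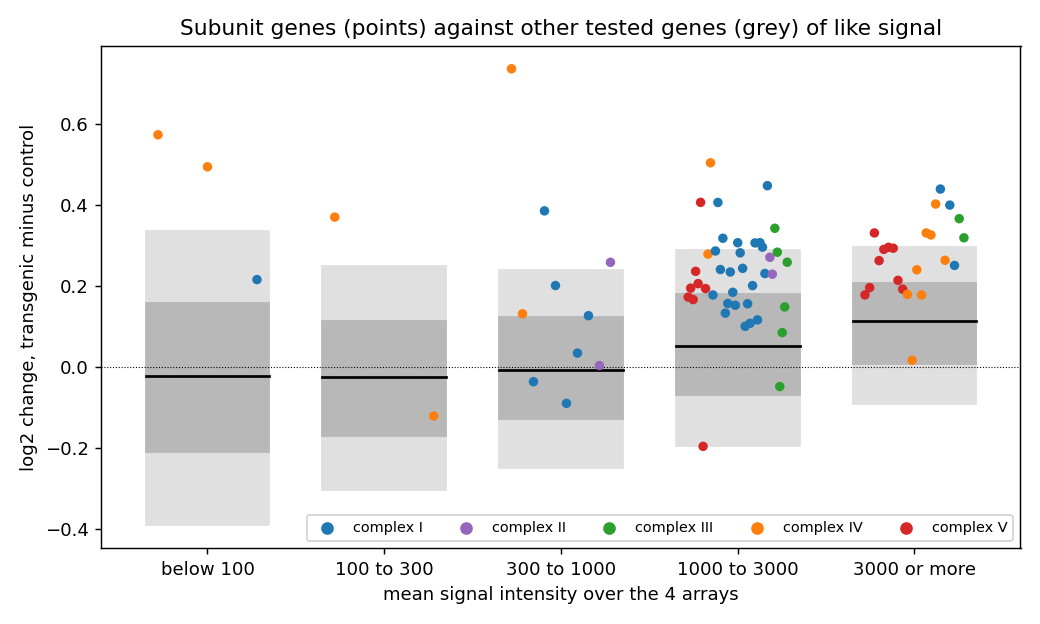
Log2 change against mean signal in 5 ranges. Points are subunit genes coloured by complex. Light and dark grey boxes hold the middle 80% and 50% of the other tested genes, and black lines are their medians, which go from −0.02 below a signal of 100 to 0.11 at 3000 or more. The subunit medians at 1000 to 3000 and at 3000 or more are 0.23 and 0.28.

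Among the 33 tested genes of complex I, 31 were above 0, with a median of 0.23, and 17 had an unadjusted p under 0.05. The 6 core genes had a median of 0.22 and the 27 accessory genes one of 0.23. Ndufv2, a core iron-sulfur protein of the NADH-oxidising module, had 1919 and 2091 as its control signals and 2729 and 2748 as its transgenic signals. Both transgenic arrays were above both control arrays, with a change of 0.45 ± 0.10 (SE; limma adjusted p = 0.247). Its other probe sets stood at 0.31 and 0.24, and on the last of these the groups overlapped. Ndufa1, a small accessory subunit needed for assembly of the membrane arm, had 3024 and 3231 in control and 4245 and 4243 in transgenic samples, so the groups were apart, at 0.44 ± 0.09 (adjusted p = 0.232). Of the 80 subunit genes covered here, Ndufa1 and Ndufb11, another accessory gene, are the 2 on the X chromosome in RefSeq. This feature was singled out after the values were seen. Ndufb11 had 2791 and 2735 in control and 3675 and 3626 in transgenic samples, apart, at 0.40 ± 0.10.

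Signals of sex-linked genes also differed between the groups, and only Eif2s3y of those named here passed the test. Eif2s3y, a Y-linked gene, had 369.7 and 364 in control and 160.2 and 154 in transgenic samples (limma adjusted p = 0.0372). Uty, also Y-linked, had 141 and 162 against 85.3 and 82.0 (limma adjusted p = 0.446), and Kdm5d had 98.5 and 88.6 against 72.9 and 58.7 (0.822). Xist, transcribed from the inactive X chromosome, had 1400.4 and 1348 against 1654 and 2058 (limma adjusted p = 0.473). On all 4 genes the groups were apart. Of all tested probe sets, 21.1% were apart with transgenic above and 23.6% with transgenic below. The part of the sex-linked difference in the subunit values was not tested.

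The other core genes of the NADH-oxidising module, Ndufv1 and Ndufs1, stood closer to 0 than Ndufv2, a difference between genes that was not tested. Ndufv1, which binds NADH and the flavin, had 769.9 and 872 in control and 842 and 836 in transgenic samples, and these overlapped. All 3 probe sets of Ndufv1 stood between −0.04 and 0.03. Ndufs1, the large iron-sulfur subunit, had 599.6 and 519.6 in control and 639 and 649 in transgenic samples, at 0.20 ± 0.12 (limma adjusted p = 0.814). The lowest genes of complex I were both accessory ones. Ndufs5 had 318 and 314 in control and 308 and 285 in transgenic samples, apart and lower by a small step, at −0.09 ± 0.15. Ndufa10 had 982 and 986 against 986 and 932, overlapping, at −0.04 ± 0.11.

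Complex II, the succinate dehydrogenase that also works in the citric acid cycle, had a median of 0.24 over its 4 genes, with 3 of them apart, but its probe sets disagreed. Sdha, the flavoprotein, had 1060.5 and 1189 in control and 1392 and 1325 in transgenic samples on the brightest probe set, at 0.27 ± 0.11 (limma adjusted p = 0.643), but another one gave −0.06 and a dim one 0.03. Sdhb, the iron-sulfur subunit with a single probe set, had 1892 and 1869.6 in control and 2198 and 2217 in transgenic samples, at 0.23 ± 0.10. On these brightest probe sets the arrays of the groups were apart. Sdhd, a membrane anchor, had 788 and 757 against 951 and 904 and stood at 0.26 ± 0.12 on 1 probe set and at −0.05 on the other. Sdhc, the other anchor, had 697 and 641 against 669.7 and 669.7 on the brightest probe set, at 0.00 ± 0.12. Its dimmer probe set had 278 and 419 against 492 and 442, at 0.43 ± 0.14 (limma adjusted p = 0.505). The control arrays differed there by 0.56 on the log2 scale, a gap that the SE leaves out because these arrays were averaged. Taking the mean over the probe sets of each gene, the median of complex II was 0.16. These 3 genes were the subunits whose probe sets brighter than the trimmed mean differed by over 0.3.

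In complex III, the small accessory subunits lay above the core proteins, a split that was noticed in the values and not tested. The median over 8 genes was 0.27, and 6 of them were apart with transgenic above control. Uqcrb, a small subunit on the matrix side, had 6650.1 and 6755 in control and 8512 and 8778 in transgenic samples, at 0.37 ± 0.09 (limma adjusted p = 0.318), and 0.16 after quantile normalization, and its second probe set stood at 0.17. Uqcr10 had 1072 and 1045 against 1304 and 1389, at 0.34 ± 0.11, and its dimmer tested probe set stood at 0.51. In both genes all transgenic values exceeded all control values. The other accessory genes, Uqcrh, Uqcr11 and Uqcrq, stood at 0.32, 0.28 and 0.26.

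The core proteins of complex III and its Rieske protein stood closer to 0. Uqcrfs1, the Rieske iron-sulfur protein that passes electrons to cytochrome c1, had 1321 and 1219 against 1484 and 1337, apart by a narrow gap, at 0.15 ± 0.11. Uqcrc2 had 2186 and 2526 in control and 2399 and 2589 in transgenic samples, overlapping, at 0.08 ± 0.10, and its other probe set stood at 0.22. Uqcrc1, its core partner, had 1271 and 1347 against 1273 and 1256, also overlapping, at −0.05 ± 0.11. The median of complex III was 0.30 with transgenic array 1 alone and 0.17 with array 2 alone.

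Complex IV had the highest median of the complexes, 0.30 over 16 tested genes (0.20 after quantile normalization), 15 of them above 0 and 13 apart. The 10 widely expressed genes of complex IV alone had a median of 0.27, as did complex III. Differences between complexes were not tested. Cox6a2 stood highest of all subunit genes. This gene, the heart and skeletal muscle form of subunit VIa, had 279 and 315 in control and 532 and 478 in transgenic samples. The groups were apart, with a change of 0.74 ± 0.14 (limma adjusted p = 0.187), a signal 1.67-fold higher on this scale. Its dimmer probe set had 34.0 and 48.4 against 65.5 and 105, at 0.81 ± 0.31.

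The widely expressed partner Cox6a1 had 4707 and 4659 in control and 5326 and 5271 in transgenic samples, apart, at 0.18 ± 0.09 (limma adjusted p = 0.773) and 0.06 after quantile normalization. Its second probe set stood at 0.09 and overlapped. Cox8b, the muscle form of subunit VIII, had 1956 and 1874 in control and 2828 and 2619.7 in transgenic samples, well apart, at 0.50 ± 0.10 (adjusted p = 0.217). Its partner Cox8a had 1579.5 and 1426 against 1905 and 1747, at 0.28 ± 0.11. Cox7a1, the muscle form of subunit VIIa, had 201 and 195 against 259 and 263, apart, at 0.37 ± 0.16 (adjusted p = 0.679). Its partner Cox7a2 had 5576 and 5262 against 6915 and 7424, at 0.40 ± 0.09 (adjusted p = 0.297) and 0.23 after quantile normalization. Its second probe set stood at 0.35.

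The muscle isoforms had a median of 0.50, all 3 apart, against 0.27 for the 10 widely expressed complex IV genes, of which 9 were apart. The change of Cox6a2 exceeded that of Cox6a1 by 0.56, by 0.63 on transgenic array 1 and 0.49 on array 2. That of Cox8b exceeded that of Cox8a by 0.23, with 0.22 and 0.23 on the arrays. Cox7a1 minus Cox7a2 was −0.03, and 0.17 after quantile normalization, so the direction of this pair turned with the scaling. The other pairs stood at 0.69 for Cox6a2 and 0.21 for Cox8b after it. The same differences between the control arrays were 0.18, 0.08 and 0.04. With 1 control sample against 2 transgenic samples an exact permutation test (two-sided) cannot go below p = 0.333, so these differences are given without a test. Markers of several other cell types were higher in the transgenic samples too. Of 19 skeletal muscle genes, 18 stood above 0 (median 0.48), and Sln, Mb, Myl1, Smpx and Mylpf, 5 in all, had an adjusted p under 0.05 in limma. The signals of the 19 genes summed to 19094 and 19324 in control and to 29315 and 29141 in transgenic samples. Without the muscle isoforms the other 75 subunit genes had a median of 0.23.

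Pigment epithelium and melanocyte genes, stromal fibroblast genes and lens genes were likewise mostly higher. Of 10 pigment genes 9 stood above 0 (median 0.35), Rpe65 and Rgr of the visual cycle rose by 1.24 and 1.06 with an adjusted p under 0.05 in limma, and the signals summed to 32244 and 32276 in control and 37174 and 40115 in transgenic samples. Of 7 stromal fibroblast genes 5 stood above 0 (median 0.28), while Col1a1 and Pdgfra stood at −0.06 and −0.13. Kera, the keratocan gene, rose by 1.54 (limma adjusted p = 0.000286), and the sums of this list were 21805 and 20708 against 27555 and 27774. Lens genes were dim, with 0 of 10 above the trimmed mean. Control signals of Cryaa (9.47 and 17.7) and Crygb (15.1 and 23.3) lay below the filter, a signal of 30.0. Such genes were tested only because their transgenic signals were high. The filter thus favoured rises among the 7 tested ones, which all stood above 0 (median 1.03). Over all 10 lens genes, with no filter, 7 were apart with transgenic above and 0 with transgenic below. Of all tested probe sets, which had passed the filter, 21.1% and 23.6% were apart in these directions. The signals of the 10 lens genes summed to 188 and 251 against 662 and 661. Corneal epithelium genes had a median of 0.05 over 7, and Muc4 fell by 0.79 (adjusted p = 0.0324). Cone genes stood below 0 in 7 of 7 and other retinal neuron genes in 6 of 8 tested, and 2 of 4 tested rod genes did, with 0 passing in limma. At an unadjusted p under 0.05 there was 1 gene in each of these 3 lists. The cone gene Arr3 and the retinal neuron gene Gad1 were lower, at −0.80 and −0.82, and the rod gene Gngt1 was higher, at 0.63. The part of muscle and of these cell types in the subunit result was not tested.

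**Figure D3:**
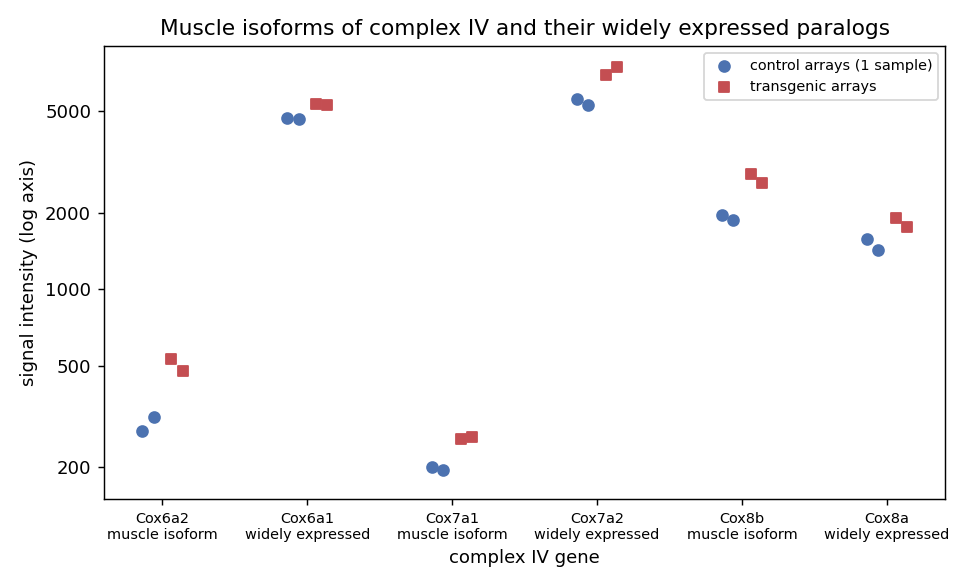
Signal intensity on a log axis of the muscle isoforms of complex IV and their widely expressed paralogs, with the 2 control arrays as circles and the 2 transgenic arrays as squares. For all 6 genes both transgenic values lie above both control values. The gap is widest for Cox6a2, at 279 and 315 against 532 and 478. Levels of different genes are not comparable, since probe sets differ in brightness.

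The remaining complex IV genes varied among themselves. Cox6c, a small membrane subunit, had 3695 and 3759.9 in control and 4679 and 4674 in transgenic samples, apart, at 0.33 ± 0.09 (limma adjusted p = 0.416). On its second probe set, with 2503 and 2614 against 2925 and 2467, the groups overlapped at 0.07. Cox6b1, which helps to hold complex IV as a dimer, had 4550.1 and 4829 against 5962 and 5839, apart, at 0.33 ± 0.09 and 0.19 after quantile normalization. Ndufa4 had 5174 and 5432 against 6154 and 6586, at 0.26 ± 0.10 and 0.10 after it. Cox4i1, a subunit that binds ATP, had 3714 and 3840.5 against 4372 and 4186, at 0.18 ± 0.10 and 0.08 after it. Cox5a was the widely expressed subunit closest to 0, with 4748 and 4596 in control and 4801 and 4650.2 in transgenic samples, overlapping, at 0.02 ± 0.09 and −0.09 after it.

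The isoforms of other tissues were dim or near 0. Cox4i2, known from lung and induced by low oxygen, had 27.7 and 36.6 against 46.8 and 65.1, at 0.57 ± 0.33 (limma adjusted p = 0.800), and its control signals lay at about the level of the filter on dim probe sets, a signal of 30.0. Cox6b2, known from testis, had 324 and 282 against 342 and 324, overlapping, at 0.13 ± 0.15. Cox8c, also known from testis, had 153 and 163 against 149.7 and 138, lower on both transgenic arrays, at −0.12 ± 0.19. The probe sets of Cox7c, a widely expressed gene, were dim as well, with 51.7 and 68.4 against 93.4 and 87.7 on the brighter one, at 0.49 ± 0.25.

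Complex V, the ATP synthase, had a median of 0.21 over 17 genes (0.12 after quantile normalization), with 16 above 0 and 16 apart. All 5 genes of the catalytic F1 head were apart. Atp5b, which encodes the catalytic beta subunit, had 5279 and 5760.0 in control and 6112 and 6531 in transgenic samples, apart, at 0.20 ± 0.09 (limma adjusted p = 0.737) and 0.02 after quantile normalization. Atp5a1, for the alpha subunit, had 2794 and 2919.8 against 3299.7 and 3167, apart, at 0.18 ± 0.10 and 0.08 after it. Atp5c1, for the gamma shaft that turns within the head, had 3388 and 3189.8 against 4214 and 4065, at 0.33 ± 0.10 (adjusted p = 0.419). The 5 F1 genes ranged upward from 0.17 for Atp5d, with a median of 0.19.

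The membrane part of complex V held both the highest and the lowest gene. Atp5l, for subunit g at the dimer interface, had 1906 and 2142 in control and 2597 and 2773 in transgenic samples, apart, at 0.41 ± 0.10 (limma adjusted p = 0.318). Atp5md, for a small protein bound to the membrane part, had 1366.5 and 1019 against 933 and 1132, overlapping, at −0.20 ± 0.13, and it stood at 0.01 without control replicate 1. The 3 genes of the rotating c ring had a median of 0.24 and were all apart. The lowest of them, Atp5g1, had 1207 and 1198 against 1410.2 and 1295, at 0.17 ± 0.11. The 4 genes of the peripheral stalk, Atp5h, Atp5j, Atp5o and Atp5pb, had a median of 0.25 and were all apart.

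The 10 genes that matched by name without encoding subunits had a median of 0.15, with 8 above 0 and none with an unadjusted p under 0.05 in limma on the brightest probe set (0 of 10). Cox7a2l, which encodes a factor that joins complexes III and IV, had 1490.5 and 1235 in control and 1515 and 1561 in transgenic samples, at 0.18 ± 0.11, and its other probe sets stood at 0.32 and 0.30. Ndufa4l2, a paralog of Ndufa4 that low oxygen induces, had 72.9 and 76.1 against 86.8 and 79.1, at 0.13 ± 0.25. The 8 complex I assembly factors ranged from −0.28 for Ndufaf5 to 0.31 for Ndufaf2.

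Other mitochondrial lists had lower medians than the subunits, and no gene of the 6 lists had an adjusted p under 0.05 in limma. The lists were not matched for signal, and most assembly factor and mitochondrial ribosome genes had a signal below 1000. The 10 subunit genes with a signal from 300 to 1000 had a median of 0.13, close to the medians of these lists. Assembly factors of all complexes, including the 8 above, had a median of 0.12 over 44 genes, with 31 above 0, 3 at an unadjusted p under 0.05, and from Sdhaf3 at 0.42 and Sdhaf4 at 0.36 to Foxred1 at −0.27 and Ndufaf5 at −0.28. Proteins of the mitochondrial ribosome, which makes the subunits encoded by mitochondrial DNA, had a median of 0.13 over 75 genes, with 60 above 0 and 12 at an unadjusted p under 0.05. They ranged from Mrps22 at 0.50 and Mrpl32 at 0.41 to Mrpl37 at −0.34 and Mrpl38 at −0.35. Citric acid cycle genes had a median of 0.13 over 16 genes, with 11 above 0 and 0 at an unadjusted p under 0.05 in limma, from Fh1 at 0.25 and Idh3b at 0.22 to Dlat at −0.09 and Ogdh at −0.32.

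Electron carriers, ubiquinone synthesis and ATP export genes had a median of 0.06 over 23 genes, with 17 above 0 and 3 at an unadjusted p under 0.05. They include Cyc1, at 0.11, which encodes cytochrome c1 of complex III but whose symbol did not match the rule for subunits. Their highest were Coq3, a ubiquinone synthesis enzyme, at 0.49 and Cycs, which encodes somatic cytochrome c, at 0.36, and their lowest were Coq6 at −0.16 and Coq2 at −0.27. Fatty acid oxidation genes had a median of −0.01 over 13 genes, with 6 above 0, from Eci1 at 0.26 and Slc25a20 at 0.18 to Acadl at −0.15 and Cpt1a at −0.18. The 16 regulators of mitochondrial biogenesis had a median of 0.03, with 9 above 0, from Esrrb at 0.29 and Tfam, the mitochondrial DNA packaging factor, at 0.20 to Polg at −0.29 and Esrrg at −0.47. At an unadjusted p under 0.05 in limma there were 0 genes in each of the last 2 lists. For comparison, all 12722 tested genes had a median of −0.01, with 48.1% above 0 and 8.06% at an unadjusted p under 0.05, a share close to that of the assembly factors. Differences between lists were not tested.

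**Figure D4:**
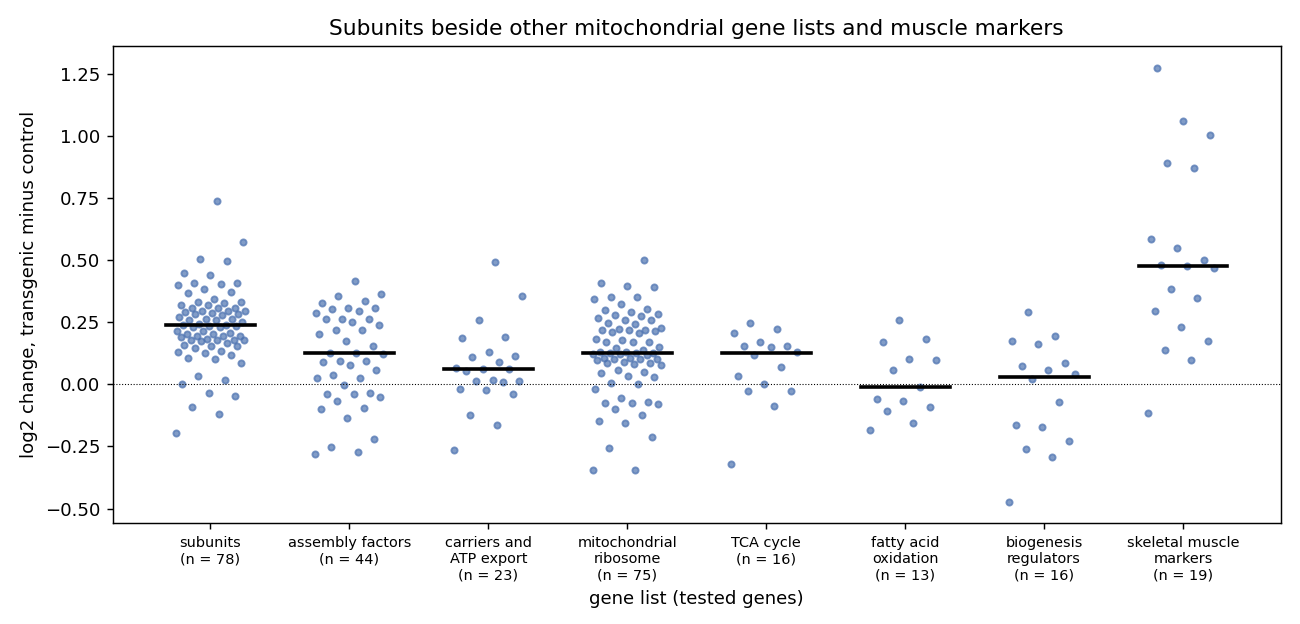
Log2 change of each tested gene, transgenic minus control, in the subunit list, in 6 other mitochondrial lists and among skeletal muscle markers. Points are genes and black lines the medians, which are 0.24 for the 78 subunits, from −0.01 to 0.13 for the other mitochondrial lists, and 0.48 for the muscle markers. The lists were not matched for signal.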

How the data were processed

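Each sample's RNA gave 1 value per probe set. As deposited, these are intensity values on a linear scale, and the software that made them is not given in the sources used here. They were used as deposited because the arrays' means, trimmed by 2% at each end, differed by under 5%. Gene symbols come from GEO's annotation of the platform. Control arrays were averaged on the scale log2(signal + 16), which understates changes of dim probe sets. Array controls (64) and probe sets with a mean log2 value below the 40th percentile were left out, leaving 27022. The 10 probe sets with several symbols, 1 or more of them matching, were not used. Changes were tested with limma 3.58.1 in R 4.3.3 (intensity trend, two-sided, Benjamini-Hochberg over all probe sets tested, threshold 0.05). The fit had 1 residual and 10.3 prior degrees of freedom and took the lone control sample to vary like the transgenic ones. It was tested on simulated data, in which the changes were larger than those of the subunit genes here.

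Members and lists were chosen with earlier results of these data known. Genes named with all 4 values are the isoforms and their paralogs, Cox6c, 2 core subunits per complex, the 2 highest and 2 lowest tested genes of each complex, and genes whose bright probe sets differed by over 0.3. Of each other mitochondrial list the 2 highest and 2 lowest genes are named. Cox7c, and member genes given by a single change, were added after their values were seen. The number of arrays limits the precision. Alternatives were quantile normalization, median centring, pseudocounts of 1 and 64, no filter or the 60th percentile, all 4 arrays as samples with and without a replicate block, moderation without trend or robust, leaving out each array, and the mean over probe sets. Array 2 minus array 1 correlated at 0.10 between the groups over 27022 probe sets, and the labels give no pairing.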

Additional observations from a re-analysis of the deposited data

How the results depend on the processing

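The medians of all subunits, of each complex and of the muscle isoforms stayed above 0 in every alternative run, with 70 to 75 subunit genes above 0. After quantile normalization the median was 0.16 for all subunits, 0.16 for complex I, 0.19 for II, 0.20 for IV, 0.12 for V and 0.42 for the muscle isoforms. After median centring it was 0.27 for all subunits, 0.27 for II, 0.33 for IV and 0.24 for V. The median of all probe sets was −0.02, 0.01 after centring and −0.00 after quantile normalization. Complex IV stood at 0.28 without the filter, 0.27 with the stricter one and 0.25 with the mean over probe sets, which gave 0.16 for complex II. Leaving out 1 array gave 0.18 to 0.28 for complex I, 0.21 to 0.26 for II, 0.17 to 0.30 for III, 0.31 to 0.33 for IV and 0.20 to 0.24 for V.

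The 21 probe sets past the threshold became 39 after quantile normalization, 177 after median centring and 135 with all 4 arrays as separate samples. Both without the filter and without the intensity trend, limma called 0, with 54 and 6 subunit probe sets at an unadjusted p under 0.05. Leaving out a control array gave 14 (without the first) to 33 (without the second), and no test was made without a transgenic array. With all 4 arrays and a replicate block the count was 1740, of which 80 were subunit probe sets, against 8 without the block. The labels make the control arrays technical replicates of 1 sample, so neither fit measures spread between control samples.

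Of 517 single-gene alternatives over 37 genes, 474 kept direction and side of the threshold, 33 passed it newly and 10 changed sign, all in genes near 0 but for Atp5md. After quantile normalization Cox5a stood at −0.094, Sdhc at −0.0013 and Uqcrc2 at −0.0027. Leaving out 1 array in turn gave −0.41 to 0.013 for Atp5md, −0.0071 to 0.040 for Cox5a, −0.077 to 0.0037 for Ndufa10, −0.054 to 0.12 for Ndufv1, −0.056 to 0.063 for Sdhc and −0.019 to 0.19 for Uqcrc2. The causes were not tested.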
